A study of Mus musculus with 75 samples.

Results

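The lung transcriptome 35 days after a single intratracheal instillation of bleomycin (BLEO) was compared with that of control lungs (CTRL). Bleomycin breaks DNA strands, and in mice a single dose injures the alveolar wall, after which inflammation, matrix deposition and epithelial repair follow one another. By the fifth week the acute inflammatory phase has passed and deposited matrix is still present. Members were all libraries labelled bleomycin day 35 (12 mice) and saline (10 mice), 22 of 75 libraries in all, matched by library name, and all 16221 of 55536 genes that passed a filter on low counts. All mice were male C57BL/6JRj, 12 to 14 weeks old at the time of instillation. Day 35 mice were 35 days older when the lung was taken. The day on which CTRL lungs were taken is not given in the sources used here. Age at sampling may therefore differ between the groups. BLEO-IPF mice had received bleomycin once, and only mice that had lost 5 to 17% of their body weight by day 6 were kept. The day 35 group therefore held selected responders, whereas CTRL mice are labelled saline and passed no such selection. The study's text describes the controls both as given saline and as untreated, so whether they were instilled is unclear. Each library was polyadenylated RNA of the inferior right lobe of 1 mouse, taken after the lung had been lavaged, so cells that washed out of the airspace were partly removed in both groups. Library totals ranged from 9662299 to 14665247 counts in CTRL (median 10745113) and from 9240291 to 14355394 on day 35 (median 10231079). In bulk tissue, fewer cells of a type and less RNA per cell cannot be told apart.

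On day 35, 4853 genes were differentially expressed (DEGs) at an adjusted p under 0.05 in edgeR's quasi-likelihood test, of which 2735 were upregulated and 2118 downregulated. These were 29.9% of the genes tested, 16.9% upregulated and 13.1% downregulated, which is the background for the lists described further on. Most changes were small: 3997 DEGs changed less than 2-fold, while 706 were more than 2-fold higher and 150 more than 2-fold lower. The groups did not overlap for 611 genes (3.77%). All 12 day 35 mice lay above all 10 CTRL mice for 394 genes (2.43% of genes tested) and below them for 217 (1.34%). Both groups expressed the defining genes of lung epithelium: *Sftpc*, the surfactant protein C gene that defines alveolar type 2 (AT2) cells, ranged from 12126 to 15394 CPM (median 13751) in CTRL and 8335 to 17652 CPM (median 14743) on day 35, and *Scgb1a1*, the secretoglobin that marks club cells, ranged from 17908 to 24458 CPM (median 22821) in CTRL and 8601 to 20754 CPM (median 14848) on day 35. Levels are given as CPM, counts scaled to a common library size with TMM factors that set aside differences in library composition. A log2 fold change (log2FC) is day 35 minus CTRL from the fitted model. After the ± sign stands its standard error, calculated back from the log2FC and the F statistic of the test.

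Among genes with no overlap between the groups, the 12 largest increases were matrix and matricellular genes, secreted inhibitors of developmental signals, macrophage genes, plasma cell genes, an epithelial anion exchanger and a neural adhesion molecule. *Thbs4* (ENSMUSG00000021702, chromosome 13, 92751590 to 92794818, minus strand), encoding the matricellular protein thrombospondin-4, ranged from 0.0795 to 0.719 CPM (median 0.367) in CTRL and 1.49 to 27.4 CPM (median 6.37) on day 35 (log2FC 4.91 ± 0.72, adjusted p = 1.76e-07). *Spp1* (ENSMUSG00000029304, chromosome 5, 104435118 to 104441050, plus strand), encoding osteopontin, ranged from 26.99 to 122 CPM (median 66.8) in CTRL and 191 to 2107 CPM (median 969.7) on day 35 (log2FC 3.92 ± 0.50, adjusted p = 6.23e-09). *Cemip* (ENSMUSG00000052353, chromosome 7, 83932857 to 84086502, minus strand), whose product depolymerizes hyaluronan, ranged from 0.0955 to 0.954 CPM (median 0.485) in CTRL and 1.76 to 31.4 CPM (median 6.9001) on day 35 (log2FC 4.51 ± 0.77, adjusted p = 4.77e-06). The choice of genes without overlap required every day 35 mouse to lie above the CTRL range. The day 35 mice themselves spanned more than a factor of 10 in level for each of the 3. *Grem1* (ENSMUSG00000074934, chromosome 2, 113746164 to 113758646, minus strand), which encodes the bone morphogenetic protein (BMP) antagonist gremlin-1, ranged from 0.307 to 1.28 CPM (median 0.589) in CTRL and 2.76 to 92.1 CPM (median 9.42) on day 35 (log2FC 4.75 ± 0.87, adjusted p = 1.65e-05). Without day 35 replicate 6, the highest mouse, the log2FC was 4.12. *Dkk2* (ENSMUSG00000028031, chromosome 3, 132085292 to 132180304, plus strand), encoding a secreted modulator of Wnt signaling, ranged from 0.359 to 1.19 CPM (median 0.667) in CTRL and 1.503 to 27.2 CPM (median 3.899) on day 35 (log2FC 3.48 ± 0.55, adjusted p = 9.3e-07). *Adamts4* (ENSMUSG00000006403, chromosome 1, 171250421 to 171260637, plus strand), encoding an aggrecan-degrading protease, ranged from 0.307 to 1.22 CPM (median 0.713) in CTRL and 1.85 to 17.9 CPM (median 3.45) on day 35 (log2FC 2.92 ± 0.63, adjusted p = 0.000184). A gene on the opposite strand overlaps its exons and has 1052% of its counts. Whether counting used strand is not given in the sources used here, so reads of such overlapping genes may not be told apart. *Chl1* (ENSMUSG00000030077, chromosome 6, 103510586 to 103750211, plus strand), encoding a neural cell adhesion molecule, ranged from 0.0928 to 0.571 CPM (median 0.389) in CTRL and 1.49 to 24.6 CPM (median 7.35) on day 35 (log2FC 4.50 ± 0.87, adjusted p = 3.81e-05).

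*Trem2*, a macrophage gene, had the smallest adjusted p of the 12 genes. *Trem2* (ENSMUSG00000023992, chromosome 17, 48346401 to 48354147, plus strand), encoding a lipid-sensing receptor of macrophages, ranged from 2.08 to 3.896 CPM (median 2.94) in CTRL and 8.36 to 46.3 CPM (median 35.97) on day 35 (log2FC 3.37 ± 0.28, adjusted p = 2.82e-15). *Gpnmb* (ENSMUSG00000029816, chromosome 6, 49036546 to 49070929, plus strand), a transmembrane glycoprotein of lipid-laden macrophages, ranged from 14.3 to 22.3 CPM (median 16.3) in CTRL and 30.7 to 263 CPM (median 137) on day 35 (log2FC 3.12 ± 0.35, adjusted p = 1.32e-10). *Slc26a4* (ENSMUSG00000020651, chromosome 12, 31519827 to 31559969, minus strand), encoding the epithelial anion exchanger pendrin, ranged from 1.24 to 6.12 CPM (median 3.65) in CTRL and 16.4 to 67.2 CPM (median 23.3) on day 35 (log2FC 3.19 ± 0.34, adjusted p = 5.23e-11). All 3 were above the CTRL range in every day 35 mouse, which the choice of genes without overlap required. The other two genes belong to antibody-secreting cells. *Jchain* (ENSMUSG00000067149, chromosome 5, 88519809 to 88527891, minus strand), whose product joins polymeric IgA and IgM, ranged from 7.05 to 27.2 CPM (median 11.3) in CTRL and 40.95 to 1087 CPM (median 143) on day 35 (log2FC 4.53 ± 0.60, adjusted p = 1.73e-08). *Igkc* (ENSMUSG00000076609, chromosome 6, 70726435 to 70726966, plus strand), the immunoglobulin kappa constant region, ranged from 58.03 to 145 CPM (median 116) in CTRL and 185 to 3198 CPM (median 317) on day 35 (log2FC 3.21 ± 0.50, adjusted p = 6.09e-07). Both were lowest in day 35 replicate 4. Even there they were above the CTRL range, as the choice of genes without overlap required.

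**Figure D1:**
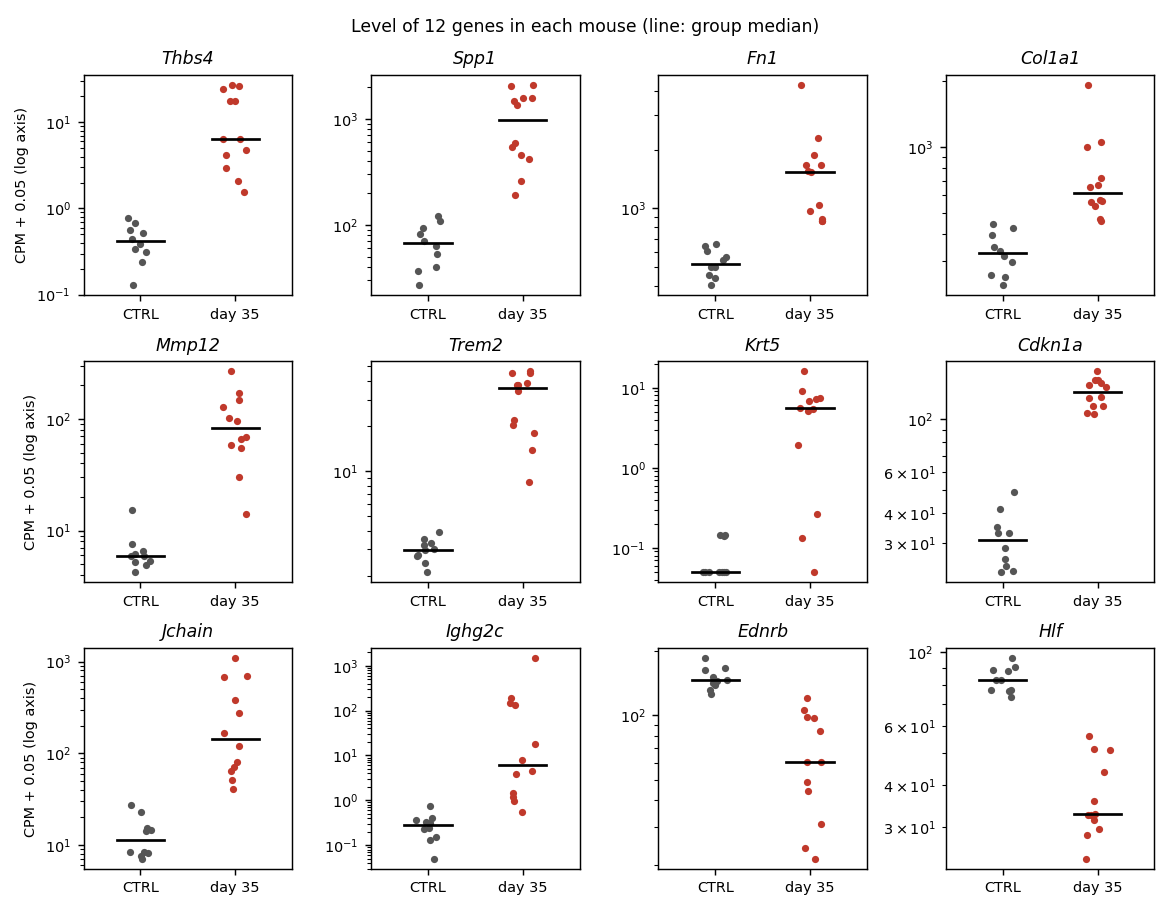
Level of 12 genes in each CTRL mouse (n = 10) and each day 35 mouse (n = 12), in CPM plus 0.05 on a log axis, with the group median as a line. *Thbs4*, *Spp1*, *Fn1*, *Col1a1*, *Trem2*, *Cdkn1a* and *Jchain* have no day 35 mouse within the CTRL range, *Ednrb* and *Hlf* lie wholly below it, and *Mmp12*, *Krt5* and *Ighg2c* overlap with CTRL in 1 or 2 mice.

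The 12 largest decreases were smaller, with log2FC between -1.43 and -2.67, and were led by *Cst8* (ENSMUSG00000027442, chromosome 2, 148798785 to 148805595, plus strand), a cystatin-family gene that ranged from 4.53 to 8.75 CPM (median 5.82) in CTRL and 0 to 1.91 CPM (median 1.02) on day 35 (log2FC -2.67 ± 0.37, adjusted p = 5.44e-08). *Bex2* (ENSMUSG00000042750, chromosome X, 136066564 to 136068236, minus strand), a brain-expressed X-linked gene, ranged from 22.9 to 42.8 CPM (median 27.1) in CTRL and 1.14 to 12.9 CPM (median 5.18) on day 35 (log2FC -2.48 ± 0.34, adjusted p = 3.48e-08). Its neighbor of the same family *Bex4* (ENSMUSG00000047844, chromosome X, 136138996 to 136140443, plus strand) ranged from 14.2 to 23.1 CPM (median 20.9) in CTRL and 3.17 to 10.5 CPM (median 5.25) on day 35 (log2FC -1.78 ± 0.21, adjusted p = 4.15e-10). For all 12 decreases, the absence of overlap with CTRL was a condition of their choice and not a result. *Hes2* (ENSMUSG00000028940, chromosome 4, 152158867 to 152162469, plus strand), a transcriptional repressor of the Hes family, ranged from 3.82 to 8.27 CPM (median 6.08) in CTRL and 0.312 to 2.44 CPM (median 0.8696) on day 35 (log2FC -2.37 ± 0.38, adjusted p = 1.64e-06). *Gria1* (ENSMUSG00000020524, chromosome 11, 57011387 to 57330244, plus strand), a subunit of AMPA-type glutamate receptors, ranged from 28.8 to 45.8 CPM (median 36.7) in CTRL and 1.95 to 18.8 CPM (median 9.31) on day 35 (log2FC -1.93 ± 0.35, adjusted p = 1.15e-05). *Gsg1l* (ENSMUSG00000046182, chromosome 7, 125878420 to 126082411, minus strand), which encodes an auxiliary protein of the same receptors, ranged from 6.75 to 12.8 CPM (median 9.66) in CTRL and 0.842 to 5.41 CPM (median 3.35) on day 35 (log2FC -1.53 ± 0.34, adjusted p = 0.000277). *Esr2* (ENSMUSG00000021055, chromosome 12, 76120419 to 76177259, minus strand), estrogen receptor beta, ranged from 4.64 to 7.98 CPM (median 6.74) in CTRL and 0.616 to 3.94 CPM (median 1.95) on day 35 (log2FC -1.60 ± 0.22, adjusted p = 2.62e-08). The protocadherin gene *Pcdhac2* (ENSMUSG00000102697, chromosome 18, 37143503 to 37187657, plus strand), which shares exons with 12 other genes of its cluster, ranged from 13.6 to 25.02 CPM (median 16.2) in CTRL and 1.67 to 10.2 CPM (median 4.95) on day 35 (log2FC -1.74 ± 0.26, adjusted p = 3.87e-07).

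Transporter and endothelial genes completed the decreases. *Slc5a12* (ENSMUSG00000041644, chromosome 2, 110597298 to 110647779, plus strand), a sodium-coupled monocarboxylate transporter, ranged from 4.95 to 10.7 CPM (median 6.02) in CTRL and 0.103 to 3.85 CPM (median 2.05) on day 35 (log2FC -1.66 ± 0.45, adjusted p = 0.0028). *Slc7a10* (ENSMUSG00000030495, chromosome 7, 35186385 to 35201114, plus strand), an amino acid transporter, ranged from 21.96 to 34.6 CPM (median 24.97) in CTRL and 1.87 to 18.1 CPM (median 7.05) on day 35 (log2FC -1.68 ± 0.45, adjusted p = 0.0026). An opposite-strand neighbor overlaps its exons and has 133% of its counts. *Esm1* (ENSMUSG00000042379, chromosome 13, 113209659 to 113218098, plus strand), the endothelial proteoglycan endocan, ranged from 31.5 to 52.8 CPM (median 45.04) in CTRL and 11.6 to 23.4 CPM (median 15.9) on day 35 (log2FC -1.46 ± 0.20, adjusted p = 3.27e-08). *Fibin* (ENSMUSG00000074971, chromosome 2, 110360917 to 110363183, minus strand), a gene of a secreted protein, ranged from 63.7 to 121 CPM (median 94.6) in CTRL and 12.9 to 52.97 CPM (median 31.8) on day 35 (log2FC -1.43 ± 0.20, adjusted p = 1.11e-07). Day 35 replicate 6 had the lowest level of 7 of the 12 genes and the highest level of 5 of the 12 that increased, whereas replicate 4 was nearest to CTRL in 8 and 6 of them.

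Extracellular matrix genes remained broadly raised. Of 21 collagen chains tested, 14 rose and 0 fell, with a median log2FC of 0.63, against a median of 0.00050 over all genes tested. *Col1a1* (ENSMUSG00000001506, chromosome 11, 94936224 to 94953042, plus strand), the major chain of fibrillar type I collagen, ranged from 233 to 443 CPM (median 325) in CTRL and 457 to 1934 CPM (median 613) on day 35 (log2FC 1.21 ± 0.31, adjusted p = 0.00182). *Col3a1* (ENSMUSG00000026043, chromosome 1, 45311538 to 45349706, plus strand), type III collagen, ranged from 449.9 to 869 CPM (median 621) in CTRL and 1240.5 to 2604 CPM (median 1603) on day 35 (log2FC 1.43 ± 0.18, adjusted p = 6.23e-09). The minor fibrillar chain *Col5a3* (ENSMUSG00000004098, chromosome 9, 20770050 to 20815067, minus strand) ranged from 4.5005 to 11.3 CPM (median 6.69) in CTRL and 14.01 to 53.2 CPM (median 19.9) on day 35 (log2FC 1.53 ± 0.41, adjusted p = 0.00274). In 9 collagen genes all day 35 mice exceeded all CTRL mice. Among 28 matrix glycoproteins, 18 rose, 1 fell and 9 were not called (median log2FC 1.05). *Fn1* (ENSMUSG00000026193, chromosome 1, 71585520 to 71653200, minus strand), encoding fibronectin, ranged from 405 to 654 CPM (median 522) in CTRL and 858 to 4306 CPM (median 1544) on day 35 (log2FC 1.61 ± 0.33, adjusted p = 0.0001). Apart from *Thbs4* and *Spp1*, whose values are given above, the list held 1 gene against its direction, *Ogn* (ENSMUSG00000021390, chromosome 13, 49608046 to 49624501, plus strand), a small leucine-rich proteoglycan, which ranged from 423 to 663 CPM (median 519.6) in CTRL and 217 to 358 CPM (median 288) on day 35 (log2FC -0.94 ± 0.16, adjusted p = 3.47e-06) with no overlap.

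Genes for crosslinking and degrading matrix rose alongside the structural genes. Of 25 genes of matrix turnover, 15 rose, 1 fell and 9 were not called (median log2FC 1.00). *Lox* (ENSMUSG00000024529, chromosome 18, 52516067 to 52529867, minus strand), which crosslinks collagen and elastin, ranged from 51.8 to 81.4 CPM (median 62.4) in CTRL and 81.2 to 256 CPM (median 118) on day 35 (log2FC 1.01 ± 0.32, adjusted p = 0.01), above all CTRL mice in 11 of 12. *Mmp12* (ENSMUSG00000049723, chromosome 9, 7344381 to 7369499, plus strand), the macrophage elastase, ranged from 4.22 to 15.3 CPM (median 5.84) in CTRL and 13.9 to 267 CPM (median 82.6) on day 35 (log2FC 3.90 ± 0.42, adjusted p = 4.6e-11). *Timp1* (ENSMUSG00000001131, chromosome X, 20870166 to 20874735, plus strand), an inhibitor of metalloproteinases, ranged from 3.78 to 6.52 CPM (median 5.31) in CTRL and 9.33 to 32.7 CPM (median 15.9) on day 35 (log2FC 1.89 ± 0.49, adjusted p = 0.00203). Crosslinking, proteolysis and its inhibition were all represented among the genes that rose. *P4ha1*, a collagen prolyl hydroxylase subunit, was the 1 member called lower (log2FC -0.21 ± 0.08, adjusted p = 0.0425). It was not called under library-size, upper quartile or DESeq2 scaling, nor with any of 11 single mice left out (adjusted p up to 0.0879).

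Transforming growth factor beta (TGFβ) drives fibroblasts to make matrix. It is stored in the matrix in a latent form and released by integrins, and its signal passes through activin-type receptors and Smad proteins. Of 25 genes of this pathway, 14 rose, 4 fell and 7 were not called (median log2FC 0.32). The ligand *Tgfb1* (ENSMUSG00000002603, chromosome 7, 25687002 to 25705077, plus strand) ranged from 60.97 to 85.6 CPM (median 76.96) in CTRL and 65.2 to 99.1 CPM (median 85.1) on day 35 and was not called (log2FC 0.15 ± 0.09, adjusted p = 0.174). The activin A subunit *Inhba* ranged from 1.81 to 3.87 CPM (median 2.87) in CTRL and 3.27 to 28.4 CPM (median 6.004) on day 35 (log2FC 1.61 ± 0.54, adjusted p = 0.0187). It was not called without day 35 replicate 6 (adjusted p = 0.0679). *Pmepa1*, a TGFβ target that also limits the signal, ranged from 52.2 to 78.6 CPM (median 63.1) in CTRL and 81.4 to 204 CPM (median 118) on day 35 (log2FC 1.00 ± 0.19, adjusted p = 3.66e-05), with no overlap between the groups. The 4 members that fell were receptors or inhibitors: the co-receptor *Tgfbr3* (-0.92, adjusted p = 5.16e-10), the endothelial receptor *Acvrl1* (-0.62, adjusted p = 1.12e-05) and the inhibitory Smads *Smad6* (-0.98, adjusted p = 3.34e-05) and *Smad7* (-0.46, adjusted p = 5.07e-05), where the first value is the log2FC.

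Most contractile genes did not pass the test. Among 15 genes of smooth muscle and myofibroblasts, 2 rose, 1 fell and 12 were not called (median log2FC -0.08). *Acta2* (ENSMUSG00000035783, chromosome 19, 34241090 to 34255590, minus strand), encoding smooth muscle α-actin, ranged from 191 to 249.995 CPM (median 222) in CTRL and 210.3 to 263 CPM (median 226) on day 35 (log2FC 0.05 ± 0.16, adjusted p = 0.852). *Cthrc1*, which marks matrix-producing fibroblasts, ranged from 2.51 to 5.94 CPM (median 4.53) in CTRL and 4.602 to 28.2 CPM (median 7.11) on day 35 (log2FC 1.33 ± 0.44, adjusted p = 0.0154). *Lrrc15*, another gene of activated fibroblasts, ranged from 0 to 0.477 CPM (median 0.137) in CTRL and 0.08397 to 8.22 CPM (median 0.479) on day 35 (log2FC 2.68 ± 0.89, adjusted p = 0.0167). *Lrrc15* depended on 1 mouse, since without day 35 replicate 6 its log2FC was 1.86 and it was not called (adjusted p = 0.116). *Myh11*, the smooth muscle myosin, ranged from 197 to 314 CPM (median 257) in CTRL and 118 to 210.5 CPM (median 166) on day 35 (log2FC -0.54 ± 0.11, adjusted p = 5.32e-05). Of 15 genes of resting alveolar and adventitial fibroblasts, 1 rose, 4 fell and 10 were not called (median log2FC -0.21). The share called, 33.3%, was near the 29.9% over all genes tested. *Pdgfra*, the platelet-derived growth factor receptor of these fibroblasts, ranged from 323 to 387 CPM (median 343) in CTRL and 203 to 436 CPM (median 284) on day 35 (log2FC -0.23 ± 0.13, adjusted p = 0.156). It was called lower in a fit of only the day 35 and CTRL mice (adjusted p = 0.0379), as were 7 genes of this list in all. *Inmt*, an indolethylamine methyltransferase, ranged from 1552 to 2425 CPM (median 1868) in CTRL and 384 to 1315 CPM (median 926) on day 35 (log2FC -1.14 ± 0.27, adjusted p = 0.000673). *Wnt2*, a Wnt ligand of lung mesenchyme, ranged from 12.7 to 26.2 CPM (median 16.7) in CTRL and 3.85 to 12.3 CPM (median 9.098) on day 35 (log2FC -1.02 ± 0.16, adjusted p = 7.75e-07). The other two that fell were *Tcf21* (-0.79, adjusted p = 0.00038) and *Limch1* (-0.49, adjusted p = 3.86e-05), and the stem and adventitial marker *Cd34* was the 1 that rose (log2FC 0.57 ± 0.07, adjusted p = 2.04e-09).

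The alveolar surface is covered by thin alveolar type 1 (AT1) cells and renewed by AT2 cells, which make surfactant and pass through a keratin-rich transitional state as they differentiate. Of 15 AT1 genes, 0 rose, 3 fell and 12 were not called (median log2FC -0.16). In a fit of only the day 35 and CTRL mice, 7 were called lower. *Hopx*, a homeodomain gene of AT1 cells, ranged from 573 to 817 CPM (median 659) in CTRL and 256 to 603 CPM (median 490.2) on day 35 (log2FC -0.50 ± 0.14, adjusted p = 0.00486). *Cav1*, caveolin-1, ranged from 1379 to 1680.2 CPM (median 1566) in CTRL and 656 to 1401 CPM (median 1172) on day 35 (log2FC -0.47 ± 0.14, adjusted p = 0.00777). The third was *Vegfa* (-0.46, adjusted p = 0.0013), the vascular growth factor that AT1 cells supply to capillaries. *Cav1* is also expressed by endothelium, whose genes fell as described below, and its cell source was not tested.

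Among AT2 genes, the surfactant protein genes *Sftpc*, *Sftpb* and *Sftpa1* were not called, with log2FC of 0.06, 0.01 and 0.02, while *Sftpd* rose (0.46, adjusted p = 0.017). Of 18 AT2 genes, 8 rose, 1 fell and 9 were not called (median log2FC 0.32). *Scd1*, which introduces the double bond into saturated fatty acids, ranged from 797 to 1910.3 CPM (median 1266) in CTRL and 1369.6 to 4337 CPM (median 3113) on day 35 (log2FC 1.31 ± 0.19, adjusted p = 2.82e-07), above all CTRL mice in 10 of 12. *Ctsh*, a cathepsin that processes surfactant protein precursors, ranged from 223 to 294 CPM (median 259) in CTRL and 342 to 616 CPM (median 463) on day 35 (log2FC 0.88 ± 0.14, adjusted p = 1.36e-06). Against day 14, *Ctsh* was lower on day 35 (log2 difference -0.692), whereas 15 of the 18 AT2 genes were higher. The cell source of *Ctsh* was not tested. *Cd36*, a fatty acid receptor that capillaries also express, was the 1 member called lower (log2FC -0.27 ± 0.10, adjusted p = 0.0303), and not with any of 5 single mice left out (adjusted p up to 0.0771).

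Of 18 genes of transitional and basal-like epithelium, 15 rose, 0 fell and 3 were not called (median log2FC 1.07). *Krt8*, the keratin for which the transitional state is named, ranged from 119 to 175 CPM (median 146) in CTRL and 146 to 256 CPM (median 192) on day 35 (log2FC 0.40 ± 0.12, adjusted p = 0.00524). *Krt5* (ENSMUSG00000061527, chromosome 15, 101707070 to 101712898, minus strand), the keratin of airway basal cells, had 3 counts over the 10 CTRL mice together and 731 over the 12 day 35 mice, and it ranged from 0 to 15.9 CPM (median 5.46) on day 35. The ratio of the summed levels was 209, with an exact 95% interval of 71.2 to 1016 that covers counting error only. *Krt17* (ENSMUSG00000035557, chromosome 11, 100256217 to 100261029, minus strand), another basal and stress keratin, had no count in any CTRL mouse and 153 on day 35, at least 43.8-fold higher when 3 counts over the whole CTRL group are taken as the limit. Both were called (adjusted p = 1.07e-06 and 1.18e-05), and each was at 0 in 1 day 35 mouse. With so few CTRL counts, both passed the filter on low counts only through bleomycin mice. Their entry to the test thus depended on high levels after bleomycin, and the calls are no separate support. The median of the list did not move when these genes were set to the ratio and the bound (1.07).

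Of 17 airway genes of club cells and mucins, 3 rose and 2 fell (median log2FC 0.26). The share called, 29.4%, was about that over all genes tested, 29.9%. *Scgb1a1* fell (log2FC -0.60 ± 0.22, adjusted p = 0.0273). It was not called without day 35 replicate 6 (adjusted p = 0.0546). *Cbr2*, a carbonyl reductase of club cells, ranged from 3629.9 to 4425 CPM (median 4216) in CTRL and 1415 to 3435 CPM (median 2204) on day 35 (log2FC -0.81 ± 0.27, adjusted p = 0.0171). The antimicrobial genes *Ltf*, lactoferrin, and *Bpifa1* rose. *Ltf* ranged from 7.79 to 22.4 CPM (median 11.6) in CTRL and 16.3 to 181 CPM (median 57.2) on day 35 (log2FC 2.40 ± 0.50, adjusted p = 0.000115). *Bpifa1* ranged from 1.56 to 15.6 CPM (median 5.28) in CTRL and 4.28 to 122 CPM (median 28.97) on day 35 (log2FC 2.36 ± 0.90, adjusted p = 0.0385). *Bpifa1* was not called with any of 10 single mice left out (adjusted p up to 0.0888). The membrane mucin was the third to rise, *Muc1* (0.48, adjusted p = 0.0239). None of the 15 genes of motile cilia was called by edgeR at the adjusted threshold. Of these, 2 had an unadjusted p under 0.05 and 0 were called by DESeq2. All 15 had a negative log2FC (median -0.18), and 3 were called lower in a fit of only the day 35 and CTRL mice. *Foxj1*, the master regulator of ciliogenesis, ranged from 70.1 to 105 CPM (median 90.8) in CTRL and 48.1 to 119 CPM (median 86.9) on day 35 (log2FC -0.10 ± 0.17, adjusted p = 0.682).

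Capillary genes were lower. The alveolar capillary bed consists of general capillaries, which proliferate after injury, and aerocytes, which exchange gas. Of 19 genes of these cells, 0 rose, 13 fell and 6 were not called (median log2FC -0.64). *Pecam1*, which joins endothelial cells, ranged from 842 to 997 CPM (median 944) in CTRL and 561 to 989 CPM (median 725) on day 35 (log2FC -0.33 ± 0.10, adjusted p = 0.00524). *Ednrb* (ENSMUSG00000022122, chromosome 14, 103814625 to 103844402, minus strand), the endothelin receptor of aerocytes, ranged from 126 to 184 CPM (median 145) in CTRL and 21.3 to 120.1 CPM (median 60.5) on day 35 (log2FC -1.17 ± 0.25, adjusted p = 0.000155), with every day 35 mouse below every CTRL mouse. Across the list the median deviation of a day 35 mouse from the CTRL mean ranged from -1.24 to -0.15 on the log2 scale, and replicates 3, 4 and 11 were nearest to CTRL (-0.16, -0.15 and -0.20).

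Venous and lymphatic genes moved in both directions. Of 15 genes of venous, systemic and stressed endothelium, 4 rose and 2 fell (median log2FC -0.01). The share called was 40%, against 29.9% over all genes tested. *Vwf*, von Willebrand factor, ranged from 569 to 943 CPM (median 677) in CTRL and 463 to 876 CPM (median 588) on day 35 (log2FC -0.20 ± 0.14, adjusted p = 0.281). *Ackr1*, a chemokine-binding receptor of venules, ranged from 0 to 0.395 CPM (median 0.183) in CTRL and 0.252 to 5.31 CPM (median 1.57) on day 35 (log2FC 3.37 ± 0.63, adjusted p = 2.15e-05). A same-strand neighbor shares exon sequence with it and has 59.1% of its counts. *Prox1*, the transcription factor of lymphatic endothelium, ranged from 2.62 to 4.64 CPM (median 4.01) in CTRL and 6.72 to 29.2 CPM (median 12.9) on day 35 (log2FC 1.79 ± 0.22, adjusted p = 2.48e-09). The other two to rise were *Col15a1* (1.42, adjusted p = 1.63e-05), a basement membrane collagen of systemic vessels, and *Mmrn1* (1.19, adjusted p = 7.46e-08), multimerin-1. Those that fell were *Lyve1* (-1.12, adjusted p = 0.000218), a hyaluronan receptor, and *Ebf1* (-0.34, adjusted p = 0.0225). Red blood cell genes fell as well, 8 of 9 tested. Their summed level was 1164 to 2963 CPM (median 1808) in CTRL and 469 to 1688 CPM (median 651) on day 35, led by the near-identical hemoglobin genes *Hba-a1* (log2FC -1.30 ± 0.23, adjusted p = 7.23e-06) and *Hba-a2* (log2FC -1.32 ± 0.24, adjusted p = 1.16e-05), whose reads may be split between them, and by the anion exchanger *Slc4a1* (log2FC -1.34 ± 0.29, adjusted p = 0.000233). The part of blood content in the endothelial result was not tested.

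Most genes of lipid-associated macrophages rose, and genes of resident macrophages moved in both directions. Resident alveolar macrophages clear surfactant, whereas monocyte-derived macrophages recruited after injury take up lipid and express *Spp1*, *Trem2* and *Gpnmb*. Of 24 genes of lipid-associated macrophages, 19 rose and 1 fell, with a median log2FC of 1.35, and the gene that fell was *Lyve1*. Of 17 resident genes, 9 rose and 3 fell (median log2FC 0.47). *Siglecf*, the lectin that identifies the resident cells, ranged from 7.45 to 12.1 CPM (median 9.44) in CTRL and 6.25 to 14.3 CPM (median 9.35) on day 35 (log2FC 0.02 ± 0.18, adjusted p = 0.945). The members that fell were *Fabp1*, a fatty acid binding protein gene (log2FC -2.14 ± 0.44, adjusted p = 0.0001), *Krt79*, a keratin gene of resident macrophages (log2FC -2.07 ± 0.38, adjusted p = 1.84e-05), and the carbonic anhydrase gene *Car4* (log2FC -0.64 ± 0.16, adjusted p = 0.00167), which aerocytes also express. *Krt79* ranged from 13.95 to 24.6 CPM (median 17.7) in CTRL and 1.36 to 14.4 CPM (median 2.73) on day 35. *Fabp1* ranged from 2.31 to 6.85 CPM (median 3.42) in CTRL and 0.181 to 2.35 CPM (median 0.648) on day 35. In each, 11 of 12 day 35 mice lay below all CTRL mice.

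Complement and antigen presentation genes were raised as well. The complement list shares *C1qa*, *C1qb* and *C1qc* with the list of lipid-associated macrophages. In all, 37 genes were in more than 1 list, so the lists are not independent of each other. Of 22 complement genes, 13 rose, 1 fell and 8 were not called (median log2FC 0.46). *C1qa*, a chain of the initiating C1q complex that macrophages make, ranged from 27.5 to 36.6 CPM (median 30.6) in CTRL and 53.4 to 194 CPM (median 111) on day 35 (log2FC 1.81 ± 0.24, adjusted p = 1.73e-08). The anaphylatoxin receptor gene *C3ar1* ranged from 4.45 to 7.72 CPM (median 5.73) in CTRL and 8.64 to 44.1 CPM (median 25.4) on day 35 (log2FC 2.19 ± 0.28, adjusted p = 8.77e-09). *C1qb* ranged from 25.2 to 38.8 CPM (median 30.97) in CTRL and 59.8 to 209.7 CPM (median 132) on day 35 (log2FC 1.94 ± 0.25, adjusted p = 8.26e-09). No day 35 mouse was within the CTRL range for any of the 3. Of 13 genes of MHC class II presentation, which show antigen to helper T cells, 9 rose and 0 fell (median log2FC 0.63). *H2-Ab1* ranged from 319 to 418 CPM (median 370.3) in CTRL and 467 to 979.5 CPM (median 652) on day 35 (log2FC 0.89 ± 0.16, adjusted p = 1.99e-05), *H2-Eb1* ranged from 269 to 341 CPM (median 306) in CTRL and 370.4 to 827 CPM (median 534) on day 35 (log2FC 0.91 ± 0.17, adjusted p = 3.16e-05). *Ctss*, the cathepsin that trims the invariant chain, ranged from 152 to 193 CPM (median 177) in CTRL and 263 to 1099.9 CPM (median 695) on day 35 (log2FC 2.00 ± 0.21, adjusted p = 1.85e-11).

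Chemokine ligands, which direct leukocyte entry, were mostly higher, 17 of 24 tested with 1 lower (median log2FC 1.03). *Ccl2*, the monocyte attractant, ranged from 0.286 to 1.15 CPM (median 0.783) in CTRL and 0.751 to 4.68 CPM (median 2.43) on day 35 (log2FC 1.68 ± 0.61, adjusted p = 0.0284), not called without day 35 replicate 6 (adjusted p = 0.0511). *Cxcl9*, an attractant of activated T cells, ranged from 0.355 to 0.899 CPM (median 0.475) in CTRL and 0.4696 to 15.8 CPM (median 3.73) on day 35 (log2FC 3.28 ± 0.54, adjusted p = 2.37e-06). *Ccl20*, which attracts cells bearing Ccr6, ranged from 0 to 0.611 CPM (median 0.0908) in CTRL and 0.194 to 2.53 CPM (median 1.05) on day 35 (log2FC 2.65 ± 0.50, adjusted p = 3.05e-05). The transmembrane chemokine *Cx3cl1* was the 1 that fell, in every day 35 mouse (log2FC -0.56 ± 0.10, adjusted p = 1.14e-05). Of 11 neutrophil genes, 2 rose, 0 fell and 9 were not called. *S100a8*, an abundant calgranulin of neutrophils, ranged from 7.55 to 26.7 CPM (median 16.6) in CTRL and 5.72 to 29.4 CPM (median 15.6) on day 35 (log2FC -0.00356 ± 0.31, adjusted p = 0.996). The genes that rose were *Ltf*, which airway glands also express, and *Cxcl5* (log2FC 1.43 ± 0.52, adjusted p = 0.0281), a chemokine that epithelium makes, a call lost without CTRL replicate 8 or day 35 replicate 9 (adjusted p up to 0.0531). *Ly6g*, *Elane* and *Mpo*, also on the neutrophil list, had at most 5 counts in any of the 22 mice and were not tested.

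Interferon-stimulated genes were moderately higher. Of 22 tested, 11 rose, 2 fell and 9 were not called (median log2FC 0.36). *Ifit1*, which binds foreign RNA, ranged from 19.5 to 31.7 CPM (median 22.1) in CTRL and 16.9 to 67.6 CPM (median 30.9) on day 35 (log2FC 0.63 ± 0.18, adjusted p = 0.00519). *Cxcl10* ranged from 0.511 to 2.07 CPM (median 1.297) in CTRL and 1.595 to 9.15 CPM (median 4.54) on day 35 (log2FC 1.93 ± 0.40, adjusted p = 9.79e-05). An opposite-strand neighbor overlaps its exons and has as many as 258% of its counts. The guanylate-binding protein genes *Gbp2* and *Gbp3*, close paralogs, fell. *Gbp2* ranged from 97.03 to 138 CPM (median 111) in CTRL and 65.6 to 92.7 CPM (median 81.8) on day 35 (log2FC -0.49 ± 0.10, adjusted p = 5.59e-05). *Gbp3* had a smaller change (log2FC -0.40 ± 0.12, adjusted p = 0.0076). These genes are read out through an interferon-stimulated response element, searched here as GAAA, any 2 bases and GAAA. Both strands were searched in promoter windows from 250 bases before to 50 bases after the start site (RefSeq, GRCm38.p6). The letters occurred in 3.99% of the 27025 genes with a window, in 5 of the 8 with a window among those that rose, in both that fell and in 4 of 6 not called. Promoters of 2 genes that rose and 2 that fell are shown to let the matches, in capitals, be compared.
Ifit1 (chr19:34640639-34640938, plus strand): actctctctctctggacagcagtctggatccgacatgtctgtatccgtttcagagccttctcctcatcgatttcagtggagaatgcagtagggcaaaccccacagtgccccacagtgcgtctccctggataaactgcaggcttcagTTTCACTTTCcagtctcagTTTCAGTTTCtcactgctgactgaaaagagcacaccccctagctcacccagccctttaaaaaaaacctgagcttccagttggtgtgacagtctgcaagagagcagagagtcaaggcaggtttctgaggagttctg
Cxcl10 (chr5:92348840-92349139, minus strand): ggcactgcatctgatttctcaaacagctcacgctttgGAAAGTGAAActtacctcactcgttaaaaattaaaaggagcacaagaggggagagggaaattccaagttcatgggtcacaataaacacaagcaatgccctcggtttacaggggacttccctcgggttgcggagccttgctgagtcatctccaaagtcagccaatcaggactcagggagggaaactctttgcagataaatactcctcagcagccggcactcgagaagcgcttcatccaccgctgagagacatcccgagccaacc
Gbp2 (chr3:142620413-142620712, plus strand): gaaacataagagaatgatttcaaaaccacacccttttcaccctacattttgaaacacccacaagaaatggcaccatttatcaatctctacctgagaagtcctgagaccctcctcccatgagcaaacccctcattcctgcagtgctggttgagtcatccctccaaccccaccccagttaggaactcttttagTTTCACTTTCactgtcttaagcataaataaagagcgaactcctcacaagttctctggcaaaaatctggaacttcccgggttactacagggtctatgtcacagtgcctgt
Gbp3 (chr3:142559794-142560093, plus strand): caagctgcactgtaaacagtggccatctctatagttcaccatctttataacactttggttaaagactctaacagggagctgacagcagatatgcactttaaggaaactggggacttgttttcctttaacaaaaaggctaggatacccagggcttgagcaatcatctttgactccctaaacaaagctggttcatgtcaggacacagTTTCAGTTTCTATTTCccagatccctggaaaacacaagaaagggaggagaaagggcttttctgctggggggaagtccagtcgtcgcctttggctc

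The letters were present in members of the list that rose, that fell and that were not called. *Gbp3* carried 2 overlapping matches in its window, *Ifit1* had 2 that were 19 bases apart, and *Cxcl10* and *Gbp2* had 1 each.

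Genes of antibody-secreting cells rose strongly in some mice. Of 21 plasma cell genes and immunoglobulin constant regions, 14 rose and 1 fell (median log2FC 0.99). *Ighg2c* (ENSMUSG00000076612, chromosome 12, 113285325 to 113288932, minus strand), an IgG heavy chain constant region, ranged from 0 to 0.692 CPM (median 0.2303) in CTRL and 0.504 to 1464 CPM (median 6.095) on day 35 (log2FC 9.38 ± 1.47, adjusted p = 7.93e-07). *Ighg3* (ENSMUSG00000076615, chromosome 12, 113356224 to 113361232, minus strand) ranged from 0 to 1.58 CPM (median 0.346) in CTRL and 0.336 to 382 CPM (median 17.6) on day 35 (log2FC 6.93 ± 1.10, adjusted p = 1.03e-06). *Ighg2b* (ENSMUSG00000076613, chromosome 12, 113302965 to 113307933, minus strand) ranged from 0.716 to 6.14 CPM (median 1.398) in CTRL and 2.94 to 447 CPM (median 19.2) on day 35 (log2FC 4.96 ± 0.81, adjusted p = 1.9e-06). The increase was very unequal between mice. *Ighg2c* stood at 1464 CPM in day 35 replicate 7 and at under 2 CPM in replicates 3, 4, 8 and 11, and without replicate 7 the log2FC of these 3 genes was 7.53, 5.78 and 3.97. The IgG constant regions resemble each other, and their reads may be split between them. *Prdm1*, the transcription factor that fixes plasma cell fate and that other leukocytes also use, was the 1 member that fell (log2FC -0.37 ± 0.12, adjusted p = 0.0183). Immunoglobulin variable segments, which the naming rule leaves out, moved alike: 104 of 125 tested were higher and 0 lower (median log2FC 3.03).

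Of 17 B cell and germinal centre genes, 2 rose and 0 fell (median log2FC -0.23). The genes that rose were *Cxcl13*, the stromal chemokine that forms B cell follicles (log2FC 1.09 ± 0.43, adjusted p = 0.0433), and the sphingosine phosphate receptor *S1pr2* (log2FC 0.18 ± 0.07, adjusted p = 0.0473), and each was not called with any of 15 single mice left out (adjusted p up to 0.0986 and 0.101).

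Of 25 T cell genes, 7 rose (*Icos*, *Ctla4*, *Pdcd1*, *Lag3*, *Foxp3*, *Cxcr6* and *Cxcr3*), 2 fell and 16 were not called (median log2FC 0.21). The share called was 36%, against 29.9% over all genes tested. When genes under 10 counts in any mouse were left out, 2 T cell genes were called higher. *Cd3d*, a chain of the T cell receptor complex, ranged from 3.199 to 6.72 CPM (median 5.02) in CTRL and 3.57 to 9.27 CPM (median 5.89) on day 35 (log2FC 0.21 ± 0.23, adjusted p = 0.519). *Pdcd1*, the checkpoint receptor PD-1, ranged from 0.0955 to 0.7299 CPM (median 0.269) in CTRL and 0.4696 to 5.83 CPM (median 1.62) on day 35 (log2FC 2.62 ± 0.42, adjusted p = 1.2e-06). *Foxp3*, the transcription factor of regulatory T cells, ranged from 0.278 to 0.834 CPM (median 0.505) in CTRL and 0.292 to 7.597 CPM (median 1.704) on day 35 (log2FC 2.14 ± 0.43, adjusted p = 8.45e-05). Genes on both strands overlap *Foxp3* and have 205% of its counts. The genes that fell were *Tcf7*, of naive and memory T cells (log2FC -0.34 ± 0.10, adjusted p = 0.00391). *Cd8a* (log2FC -0.61 ± 0.22, adjusted p = 0.0286), which was not called without CTRL replicates 5, 8 or 9 (adjusted p up to 0.118). Of these CTRL mice, replicates 8 and 9 had the highest sums of thymus genes (59.5 and 93.5 CPM), and the part of thymus RNA in the *Cd8a* result was not tested. Genes of natural killer (NK) and cytotoxic cells were lower, 7 of 14 with 0 higher (median log2FC -0.67). *Ncr1*, an activating receptor of NK cells, ranged from 4.09 to 6.92 CPM (median 5.49) in CTRL and 1.13 to 4.91 CPM (median 2.84) on day 35 (log2FC -0.99 ± 0.29, adjusted p = 0.0058). The pore-forming *Prf1* ranged from 4.71 to 10.7 CPM (median 8.09) in CTRL and 2.44 to 5.96 CPM (median 3.69) on day 35 (log2FC -1.07 ± 0.26, adjusted p = 0.00097). *Klra8*, from a family of near-identical receptors, ranged from 2.77 to 5.84 CPM (median 4.35) in CTRL and 1.595 to 3.07 CPM (median 1.91) on day 35 (log2FC -1.05 ± 0.28, adjusted p = 0.00218).

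Genes of mitosis were raised. Of 28 cell cycle genes, 21 rose and 0 fell, and all 28 had a positive log2FC (median 0.63), but the 7 not called included the 4 replication licensing genes of the Mcm family and *Pcna*. *Mki67* (ENSMUSG00000031004, chromosome 7, 135689784 to 135716361, minus strand), encoding the proliferation antigen Ki-67, ranged from 11.4 to 28.3 CPM (median 18.7) in CTRL and 18.1 to 72.7 CPM (median 32.9) on day 35 (log2FC 0.87 ± 0.23, adjusted p = 0.00251). *Ccnb1* (ENSMUSG00000041431, chromosome 13, 100778650 to 100786570, minus strand), the mitotic cyclin B1, ranged from 0.3804 to 2.29 CPM (median 1.21) in CTRL and 1.34 to 6.04 CPM (median 2.46) on day 35 (log2FC 1.25 ± 0.29, adjusted p = 0.000501). *Hmmr* (ENSMUSG00000020330, chromosome 11, 40701395 to 40733422, minus strand), which organizes the spindle, ranged from 1.43 to 2.97 CPM (median 1.94) in CTRL and 0.924 to 9.05 CPM (median 3.81) on day 35 (log2FC 0.97 ± 0.29, adjusted p = 0.0064). The groups overlapped for all 3, with 8 or 9 of 12 day 35 mice above the CTRL range. Late cell cycle promoters are known for CCAAT boxes and for the cell cycle homology region (CHR), searched here as TTTGAA. On either strand, CCAAT occurred in the window of 15 of 17 genes that rose and 6 of 7 that were not called, against 41.1% of all genes, and TTTGAA in 11 of 17 and 1 of 7, against 20.2%. The windows of the 3 named genes are shown with both motifs in capitals. Whether their levels varied together between mice was not tested.
Mki67 (chr7:135716330-135716629, minus strand): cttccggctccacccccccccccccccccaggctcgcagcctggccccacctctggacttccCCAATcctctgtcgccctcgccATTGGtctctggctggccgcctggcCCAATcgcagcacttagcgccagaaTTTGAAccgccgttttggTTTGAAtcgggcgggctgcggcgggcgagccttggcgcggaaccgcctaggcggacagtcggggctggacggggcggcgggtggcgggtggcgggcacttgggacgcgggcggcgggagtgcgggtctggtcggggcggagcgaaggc
Hmmr (chr11:40733388-40733687, minus strand): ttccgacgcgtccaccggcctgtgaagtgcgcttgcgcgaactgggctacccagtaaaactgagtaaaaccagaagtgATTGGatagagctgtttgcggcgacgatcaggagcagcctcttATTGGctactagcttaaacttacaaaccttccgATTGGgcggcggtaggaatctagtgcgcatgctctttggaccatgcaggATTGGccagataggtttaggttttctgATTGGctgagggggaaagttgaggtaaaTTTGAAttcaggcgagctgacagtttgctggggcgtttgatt
Ccnb1 (chr13:100786437-100786736, minus strand): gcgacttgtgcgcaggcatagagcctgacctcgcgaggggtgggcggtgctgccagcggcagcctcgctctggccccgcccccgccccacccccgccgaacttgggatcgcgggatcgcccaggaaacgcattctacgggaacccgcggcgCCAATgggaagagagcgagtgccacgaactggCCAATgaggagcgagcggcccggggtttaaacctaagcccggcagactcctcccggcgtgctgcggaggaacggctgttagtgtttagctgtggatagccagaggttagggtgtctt

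*Mki67* had 3 CCAAT and 2 TTTGAA matches and *Hmmr* 5 and 1, whereas *Ccnb1* had 2 CCAAT matches and none of TTTGAA in this window. Arrest genes rose beside the mitosis genes. The p53 protein responds to DNA breaks by inducing cell cycle inhibitors and death genes. Of 22 p53 targets and cyclin-dependent kinase inhibitors, 16 rose, 1 fell and 5 were not called (median log2FC 0.52). *Cdkn1a* (ENSMUSG00000023067, chromosome 17, 29090976 to 29100727, plus strand), the p21 inhibitor, ranged from 22.6 to 49.3 CPM (median 30.8) in CTRL and 105 to 159 CPM (median 130.4) on day 35 (log2FC 2.04 ± 0.15, adjusted p = 6.78e-18), the smallest adjusted p of the named genes. *Psrc1* (ENSMUSG00000068744, chromosome 3, 108383839 to 108388231, plus strand), a p53-regulated spindle gene, ranged from 0.761 to 2.82 CPM (median 2.06) in CTRL and 7.89 to 19.7 CPM (median 11.4) on day 35 (log2FC 2.60 ± 0.19, adjusted p = 1.14e-17). *Cdkn2a* (ENSMUSG00000044303, chromosome 4, 89274471 to 89294653, minus strand), the locus of p16 and p19Arf, ranged from 0.0928 to 1.13 CPM (median 0.415) in CTRL and 0.657 to 4.58 CPM (median 2.39) on day 35 (log2FC 2.34 ± 0.37, adjusted p = 8.54e-07). *Cdkn1a* and *Psrc1* did not overlap with CTRL in any mouse, and their SD of log2 CPM on day 35 was 0.199 and 0.333. The median SD over all genes tested was 0.223 on day 35, and *Col1a1* had 0.598 and *Igkc* 1.54. *Cdkn1c*, an inhibitor of quiescent cells, was the 1 that fell (log2FC -0.46 ± 0.13, adjusted p = 0.00523).

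Of 29 genes of cholesterol and fatty acid synthesis, 14 rose and 0 fell (median log2FC 0.23). *Hmgcs1*, which makes the precursor of sterols, ranged from 93.4 to 138 CPM (median 124) in CTRL and 129 to 206 CPM (median 169.5) on day 35 (log2FC 0.45 ± 0.09, adjusted p = 3.72e-05). *Elovl1*, a fatty acid elongase, ranged from 218 to 387 CPM (median 317) in CTRL and 376 to 647 CPM (median 549.7) on day 35 (log2FC 0.77 ± 0.16, adjusted p = 7.79e-05). Of 19 circadian clock genes, 4 rose and 11 fell (median log2FC -0.53). *Arntl* (ENSMUSG00000055116, chromosome 7, 113207465 to 113314126, plus strand), the activator BMAL1, ranged from 2.76 to 5.57 CPM (median 3.45) in CTRL and 3.78 to 11.8 CPM (median 7.596) on day 35 (log2FC 1.18 ± 0.28, adjusted p = 0.000825). Its partner *Npas2* ranged from 0.475 to 2.27 CPM (median 1.13) in CTRL and 1.16 to 3.54 CPM (median 2.35) on day 35 (log2FC 0.87 ± 0.25, adjusted p = 0.00629). *Hlf* (ENSMUSG00000003949, chromosome 11, 90336536 to 90390895, minus strand), an output transcription factor, ranged from 73.2 to 95.9 CPM (median 82.6) in CTRL and 24.1 to 56.01 CPM (median 32.8) on day 35 (log2FC -1.15 ± 0.18, adjusted p = 6.58e-07), with no overlap. The other two that rose were *Clock* (log2FC 0.27 ± 0.10, adjusted p = 0.0346), not called with any of 7 single mice left out (adjusted p up to 0.0746), and *Bhlhe40* (log2FC 0.41 ± 0.14, adjusted p = 0.0231). *Bhlhe40* was not called without day 35 replicate 6, CTRL replicate 7 or CTRL replicate 10 (adjusted p up to 0.081). The genes that fell included the repressors *Per1*, *Per2*, *Per3*, *Cry1* and *Cry2*. The hour at which lungs were taken is not given in the sources used here, so time of day and group cannot be told apart. The E-box letters CACGTG, which BMAL1 binds, occurred in the promoter window of 4 of 9 clock genes that fell, 0 of 3 that rose and 1 of 4 not called, against 8.09% of all genes. The letters AGGTCA, a core motif of nuclear receptors, occurred in 2 of 9, 2 of 3 and 1 of 4, against 18.1%.

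Of 26 cytochrome P450 and detoxification genes, 2 rose, 13 fell and 11 were not called (median log2FC -0.51). *Cyp1a1* (ENSMUSG00000032315, chromosome 9, 57687928 to 57703824, plus strand), induced through the aryl hydrocarbon receptor, ranged from 12.1 to 24.8 CPM (median 14.7) in CTRL and 0.281 to 13.4 CPM (median 1.82) on day 35 (log2FC -2.36 ± 0.53, adjusted p = 0.000362), below all CTRL mice in 11 of 12. *Fmo2* (ENSMUSG00000040170, chromosome 1, 162874317 to 162898726, minus strand), the main flavin monooxygenase of lung, ranged from 1369 to 2586 CPM (median 1695) in CTRL and 552 to 1266 CPM (median 803) on day 35 (log2FC -1.20 ± 0.17, adjusted p = 7.55e-08). The 2 members that rose were *Hmox1* and *Gclc*, whereas *Nqo1* and *Gclm* of the same list were not called higher. *Hmox1*, which degrades heme, ranged from 23.1 to 37.5 CPM (median 30.02) in CTRL and 35.4 to 90.9 CPM (median 52.96) on day 35 (log2FC 1.03 ± 0.19, adjusted p = 2.3e-05). *Gclc*, the rate-limiting enzyme of glutathione synthesis, ranged from 182 to 242 CPM (median 219) in CTRL and 247 to 398 CPM (median 299) on day 35 (log2FC 0.51 ± 0.10, adjusted p = 9.25e-05).

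**Figure D2:**
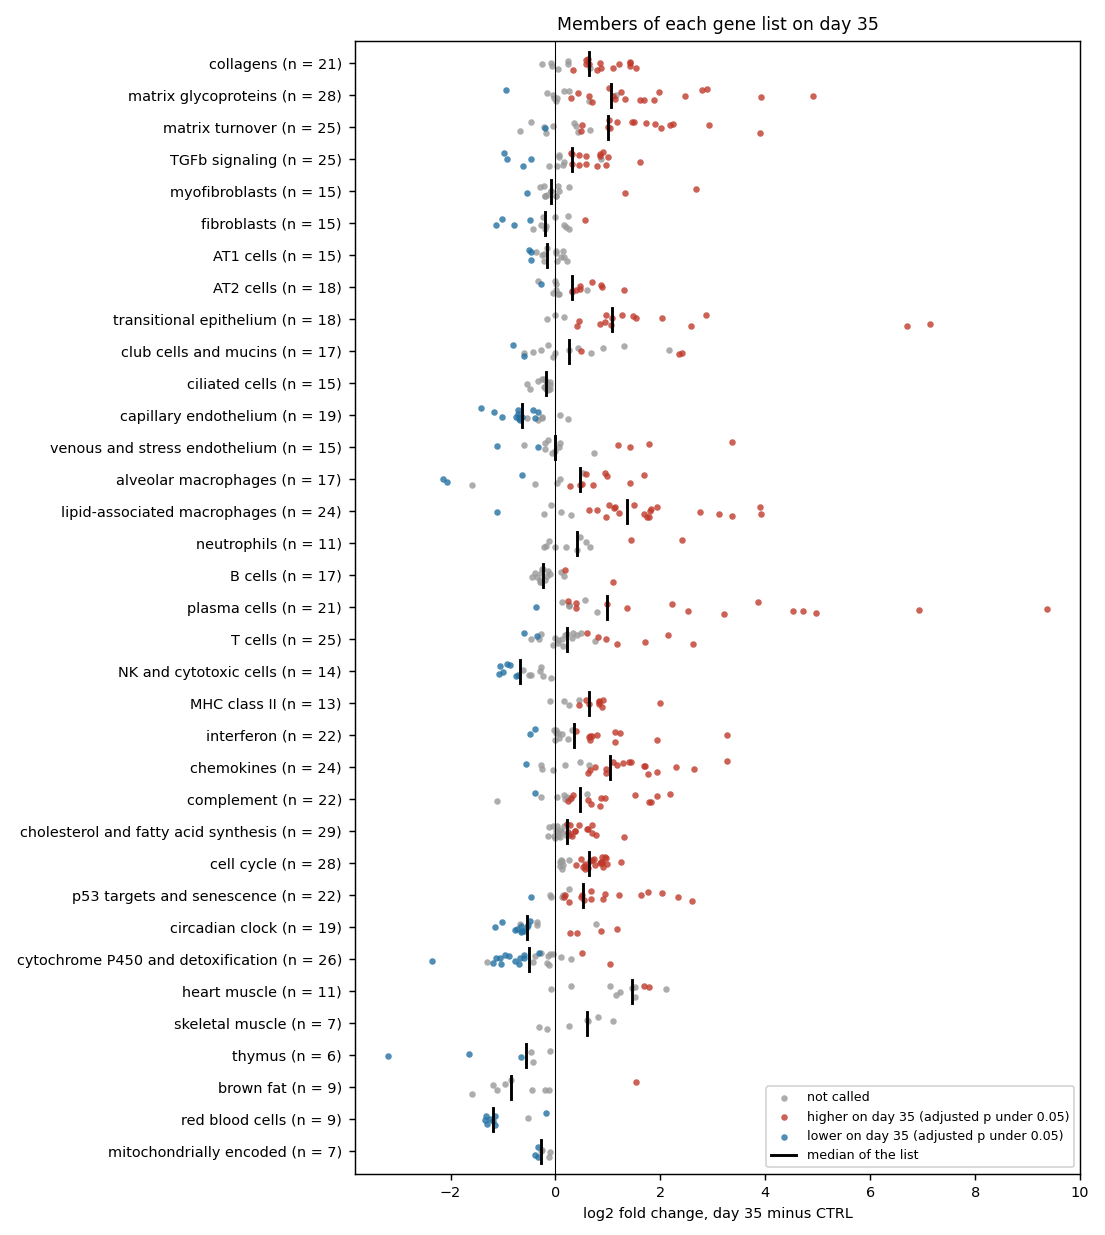
Log2 fold change (day 35 minus CTRL) of every tested member of 35 gene lists, each point 1 gene, colored where edgeR's adjusted p was under 0.05, with the median of each list as a bar. The highest median is that of heart muscle (1.45), followed by lipid-associated macrophages (1.35), transitional epithelium (1.07), matrix glycoproteins (1.05) and chemokines (1.03). The lowest are those of red blood cells (-1.19), brown fat (-0.85), NK cells (-0.67) and capillary endothelium (-0.64).

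Genes of neighboring tissues were measured because a lobe can be taken with traces of heart, thymus or fat. Of 11 heart muscle genes, 2 rose, *Mybpc3* (log2FC 1.79 ± 0.64, adjusted p = 0.0275) and *Pln* (log2FC 1.69 ± 0.65, adjusted p = 0.0388), and 0 fell, with a median log2FC of 1.45. A fit of only the day 35 and CTRL mice called 8 higher, DESeq2 called 3, and 0 were called with at least 10 counts in every mouse. The calls of both genes depended on single mice: *Mybpc3* was not called without CTRL replicate 5 or 10 (adjusted p up to 0.0526), *Pln* was not called with any of 10 single mice left out (adjusted p up to 0.0685), and opposite-strand genes that overlap *Pln* hold 689% of its counts. The cardiac myosin gene *Myh6* ranged from 0 to 108 CPM (median 27.7) in CTRL and 21.4 to 191 CPM (median 91.3) on day 35 (log2FC 1.45 ± 0.82, adjusted p = 0.182). *Myh6* was called in the fit of only the day 35 and CTRL mice (1.46, adjusted p = 0.0122). The summed level of the heart list was 79.7 to 325 CPM (median 139) in CTRL and 108 to 543 CPM (median 303) on day 35. Of 7 skeletal muscle genes 0 were called in edgeR's fit of all groups (0 also at an unadjusted p under 0.05), 1 in DESeq2 and 2, both higher, in the fit of only the day 35 and CTRL mice. Their sum was 5.09 to 13.7 CPM (median 9.98) and 6.65 to 20.9 CPM (median 12.01). Of 6 thymus genes 3 fell, among them *Rag1* (-3.20, adjusted p = 0.002) and *Dntt* (-1.65, adjusted p = 0.015), and the sum was 32.003 to 93.5 CPM (median 47.7) in CTRL, highest in replicate 9, and 29.2 to 42.7 CPM (median 31.9) on day 35. Of 9 brown fat genes 1 rose, *Dio2* (1.54, adjusted p = 0.00652), which other tissues also express. The other 8 had a negative log2FC (median of the list -0.85), 5 of the list were called lower in the fit of only the day 35 and CTRL mice, and the sum was 17.4 to 71.8 CPM (median 41.9) and 10.8 to 41.1 CPM (median 18.7). Mitochondrially encoded mRNA summed to 15274 to 19299.6 CPM (median 17872) in CTRL and 11219 to 20165 CPM (median 14981) on day 35, with *mt-Nd2* (-0.40, adjusted p = 0.0169), *mt-Nd4* (-0.33, adjusted p = 0.0425) and *mt-Nd6* (-0.34, adjusted p = 0.0317) called lower of 7 tested. The call of *mt-Nd4* was lost with library size (adjusted p = 0.0541), upper quartile factors (0.0513) or no filter (0.0904), and that of *mt-Nd6* in the fit of only the day 35 and CTRL mice (0.0594) or with no filter (0.0618). The part of these tissues and of mitochondrial RNA in the changes of the other lists was not tested.

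Day 35 mice differed among themselves more than CTRL mice did. The SD of log2 CPM was larger on day 35 than in CTRL for 12107 of 16221 genes (74.6%), with a median SD of 0.223 on day 35 and 0.169 in CTRL. The median absolute log2 difference of a mouse from the CTRL mean, over all genes tested, was 0.105 to 0.157 for CTRL mice, each against the other 9, and 0.149 to 0.337 for day 35 mice. Day 35 replicates 9, 7, 6 and 5 lay farthest from CTRL and replicates 3, 4 and 11 nearest. The rank depended on the list. Replicate 6 had the highest median deviation for collagens, matrix glycoproteins, lipid-associated macrophages and the cell cycle (1.35, 1.76, 1.95 and 1.59 on the log2 scale), replicate 5 for plasma cell genes (2.20), and replicate 7 the lowest for capillary endothelium (-1.24). Cell cycle genes were within 0.10 of the CTRL mean in replicates 3, 10 and 11. The median deviation of p53 targets and inhibitors ranged from 0.26 to 0.70 in the 12 mice, and that of complement genes from 0.21 to 0.75. For p53 targets and inhibitors the highest CTRL mouse stood at 0.26.

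**Figure D3:**
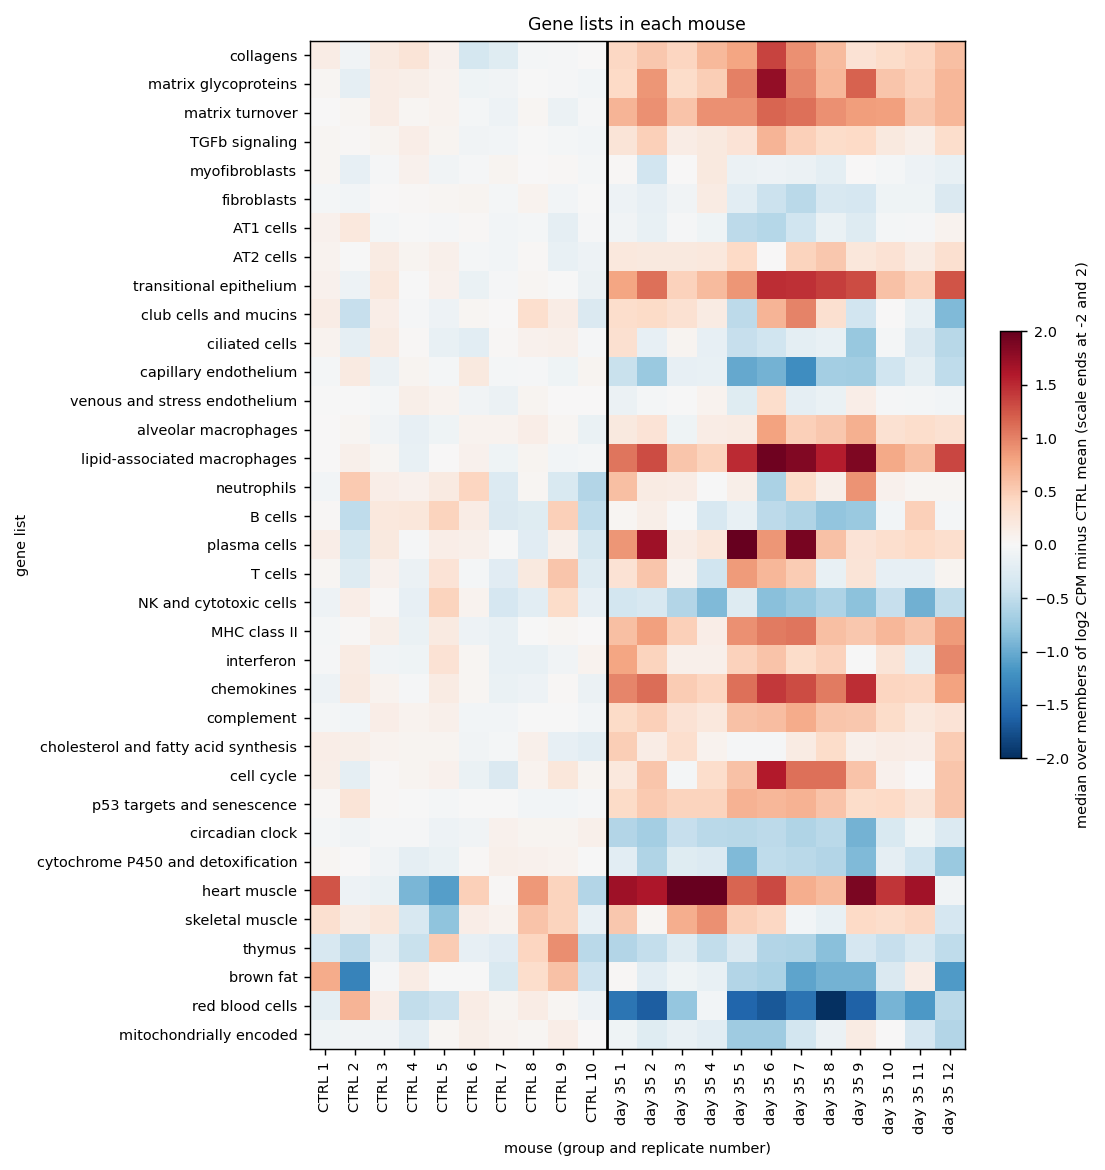
Median over the tested members of each gene list of log2 CPM minus the CTRL mean, for each CTRL mouse (left of the line) and each day 35 mouse (right), colored from -2 to 2. Lipid-associated macrophages are above 0 and capillary endothelium is below 0 in all 12 day 35 mice, and replicate 12 is the 1 day 35 mouse with a heart muscle value below 0.

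Against day 14, day 35 differed in 6979 genes (43% of genes tested), 3230 higher (19.9%) and 3749 lower (23.1%), a split that turned to 3772 higher and 3055 lower with library size as the only scaling. Matrix and proliferation genes were lower than on day 14: 17 of 21 collagens, 20 of 25 genes of matrix turnover and all 28 cell cycle genes were called lower. *Timp1* stood at 42.5 to 296 CPM (median 127) on day 14 and 9.33 to 32.7 CPM (median 15.9) on day 35 (log2 difference -2.89, adjusted p = 1.31e-07). The serine protease inhibitor genes *Serpina3m* (log2 difference -3.18, adjusted p = 2.7e-08) and *Serpinb9b* (-2.97, adjusted p = 2.84e-08), both from families of close paralogs, fell to levels that were not called against CTRL (log2FC -0.64 ± 0.46, adjusted p = 0.31 and log2FC 0.93 ± 0.49, adjusted p = 0.149). *Serpinb9b* was called higher than CTRL in a fit of only the day 35 and CTRL mice (adjusted p = 0.00268). In the other direction, 15 of 15 cilia genes, 15 of 18 AT2 genes, 14 of 17 B cell genes and 16 of 26 detoxification genes were higher on day 35. *Sftpc* stood at 3342 to 13545 CPM (median 6909.6) on day 14 and was 0.94 higher on the log2 scale on day 35 (adjusted p = 1.95e-05). The largest gains among genes that met the conditions on symbol and level were *Ighg2c*, *Ighg3* and *Ighg2b* (log2 differences 4.66, 3.89 and 2.51), with adjusted p-values of 5.03e-05, 6.33e-05 and 0.00104, and *Krt5*, below the level condition, was 3.87 higher (adjusted p = 2.67e-05).

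Among capillary genes, 3 of 19 were higher than on day 14 and 2 were lower, and *Ednrb* stood at 33.8 to 84.6 CPM (median 65.3) on day 14 and 21.3 to 120.1 CPM (median 60.5) on day 35 (log2 difference 0.13, adjusted p = 0.694). The day 35 mice are the same in the comparisons with CTRL and with other days, so these differences are not independent of each other.

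Few genes passed the test between day 35 and the neighboring days. Against day 28, 206 genes were called (1.27%), 131 higher (0.808%) and 75 lower (0.462%), but a fit of only these 2 groups called 0, with 1568 genes at an unadjusted p under 0.05, and DESeq2 on all groups called 327. The largest gains were *Ighg3* (log2 difference 4.07, adjusted p = 0.004), *Ighg2c* (log2 difference 3.76, adjusted p = 0.0255) and *Unc79*, a subunit of a neuronal sodium leak channel complex (log2 difference 1.05, adjusted p = 0.0327). The largest losses were genes of muscle and fat: *Car3* (log2 difference -4.32, adjusted p = 0.0242), which ranged from 0 to 1522 CPM (median 0.204) on day 28 and from 1.71 to 12.7 CPM (median 6.14) on day 35, *Cfd* (log2 difference -3.75, adjusted p = 0.0375) and *Tnnt3* (log2 difference -3.70, adjusted p = 0.000618), at 0.933 to 295 CPM (median 1.62) on day 28. For *Car3* the day 28 median was below the day 35 median although the fitted difference is negative, and 1 day 28 mouse at 1522 CPM was far above all others. In the fit of all groups none of the 3 was called on day 35 against CTRL (adjusted p = 0.382, 0.419 and 0.89). In a fit of only the day 35 and CTRL mice, *Car3* (-1.20, adjusted p = 0.0138) and *Cfd* (-1.11, adjusted p = 0.0199) were called lower. Against day 42 (7 mice), edgeR called 0 genes (0%), with 957 at an unadjusted p under 0.05 and a smallest adjusted p of 0.174, and DESeq2 called 0, which does not show that the days were alike.

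**Figure D4:**
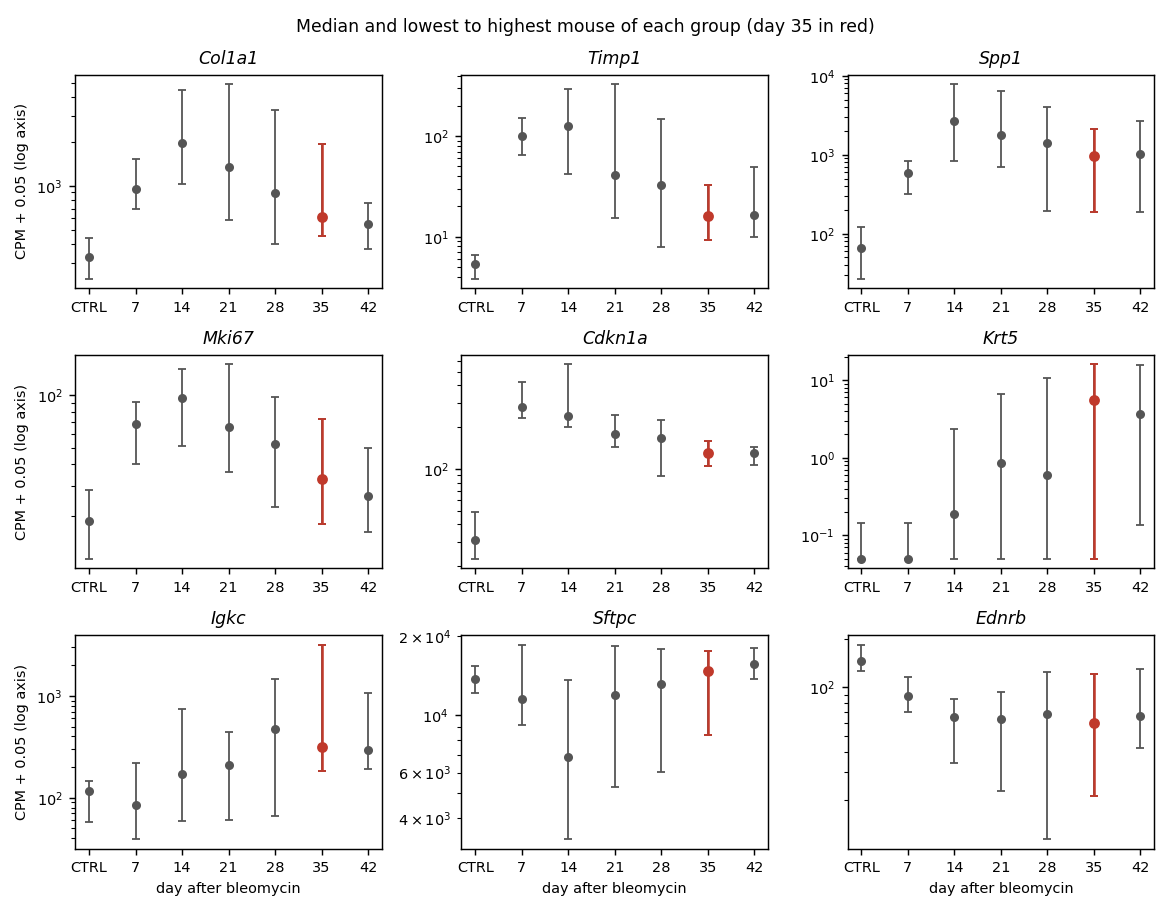
Level of 9 genes in CTRL and on days 7 to 42 after bleomycin, in CPM plus 0.05 on a log axis, with the group median as a point, lowest to highest mouse as a bar and day 35 in red (n = 10 CTRL, 10 on day 7, 12 each on days 14 to 35, 7 on day 42). *Col1a1*, *Timp1*, *Mki67* and *Cdkn1a* are lower on day 35 than on day 14, *Krt5* and *Igkc* are higher, *Sftpc* has a median of 14743 CPM on day 35 and 13751 in CTRL, and every day 35 mouse is below the CTRL range for *Ednrb*.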

How the data were processed

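Lungs of 75 mice were sequenced, 1 library per mouse (polyadenylated RNA, directional kit, single-end reads). The authors aligned reads with STAR 2.7.0f to GRCm38 and deposited whole-number counts per Ensembl gene. The counting program and its handling of strand and of reads with several matches are not given in the sources used here. Library totals per mouse were 9240291 to 14665247 counts in the 22 mice compared, and SDs and standard errors reflect mice.

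Here, counts were tested with edgeR 4.0.16 (R 4.3.3, limma 3.58.1): TMM factors, filterByExpr by group (16221 genes), 1 quasi-likelihood fit over all 7 groups, Benjamini-Hochberg adjustment over all genes tested and a threshold of 0.05. The filter took the mice of all groups together, so genes with almost no counts in CTRL passed it through bleomycin mice. CPM used TMM-scaled library sizes, and log2 CPM a prior count of 2. The procedure was tested on simulated data. These had the same spread for every gene and changes on day 35 only, a simpler setting than that of the real counts. Tables and figures used Python 3.11.15, pandas 2.3.3, numpy 2.4.6, scipy 1.17.1 and matplotlib 3.10.9. Coordinates are from the GRCm38 annotation and promoter windows from RefSeq (GRCm38.p6). For *Gbp3*, which has 2 windows, the window with a match is shown.

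The comparison and the 35 gene lists were chosen with earlier results of these data known. Named genes were the 12 largest changes in each direction among genes called, with a mean log2 CPM above 1, a symbol that is not a clone or predicted name, no variable immunoglobulin or T cell receptor segment, and no overlap between groups. In each list they were the first gene, the 2 called members with the largest change and members called against the direction of most. For each other day they were the 3 largest differences per direction, by the same conditions on symbol and level. Members of counts of 5 or fewer, the 7 T cell genes that rose, the surfactant genes, the clock repressors and *Krt5* against day 14 were named after their values were seen. No pair of libraries of a group agreed within sampling noise. Alternatives were DESeq2 1.42.0, library-size and upper quartile scaling, no filter on low counts, a stricter filter (10 counts or more in each mouse), models of just the compared groups, a block for replicate numbers, a minimum absolute log2FC of 0.5 and, chosen after seeing the data, each mouse left out in turn and only mice with shared numbers. Results for some genes of the lists are not reported here. The labels do not name batches, cages or the hour of sampling.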

Additional observations from a re-analysis of the deposited data

Results flagged for a closer look

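In 17 named genes, 1 CTRL mouse stood apart from the other 9 by more than Dixon's 95% critical value for 10 samples, which chance exceeds in about 1 of 20 groups. CTRL replicate 1 had the highest level of *Cxcl9* (0.899 CPM) and *Mybpc3* (3.95 CPM). CTRL replicate 2 had the highest level of *Mmp12* (15.3 CPM), *Acvrl1* (1025 CPM), *Smad7* (132 CPM), *Cx3cl1* (82.4 CPM), *Hba-a1* (677 CPM) and *Hba-a2* (446 CPM). CTRL replicate 5 had the highest level of *Adamts4* (1.22 CPM) and *Ifit1* (31.7 CPM). CTRL replicate 6 had the highest level of *Slc5a12* (10.7 CPM). CTRL replicate 6 had the lowest level of *Muc1* (156 CPM). CTRL replicate 9 had the highest level of *Ighg2c* (0.692 CPM), *Ighg3* (1.58 CPM), *Dntt* (6.72 CPM) and *Rag1* (18.6 CPM). CTRL replicate 9 had the lowest level of *Pecam1* (842 CPM). 

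For 76 of 148 named genes, the change from CTRL on day 35 differed from that on day 14, and for 6 from that on day 28, by the test of the difference between the days (edgeR, adjusted p under 0.05). Over all genes tested, 43% were called against day 14 and 1.27% against day 28. The 6 against day 28 and some of those against day 14 were named for having the largest differences from that day, so their inclusion is no result. The values are log2 differences, day 35 minus the other day, and the CTRL mice are shared by the changes compared. Against day 28 they were *Ighg2c* (3.76), *Ighg3* (4.07), *Unc79* (1.05), *Car3* (-4.32), *Cfd* (-3.75) and *Tnnt3* (-3.70). Against day 14, the matrix and fibroblast genes lower on day 35 were *Timp1* (-2.89), *Thbs4* (-2.32), *Adamts4* (-2.13), *Lox* (-2.04), *Cemip* (-2.01), *Inhba* (-1.96), *Col5a3* (-1.85), *Fn1* (-1.71), *Spp1* (-1.70), *Col1a1* (-1.69), *Cthrc1* (-1.17), *Col3a1* (-1.06), *Col15a1* (-1.06), *Pmepa1* (-0.662), *Pdgfra* (-0.617), *Acta2* (-0.613), *Wnt2* (-0.469) and *Tgfb1* (-0.375), and those higher were *Inmt* (1.02) and *Ogn* (0.406). The epithelial genes lower on day 35 were *Ctsh* (-0.692), and those higher were *Krt5* (3.87), *Krt17* (1.74), *Cbr2* (1.35), *Scgb1a1* (1.00), *Sftpc* (0.939), *Muc1* (0.606) and *Foxj1* (0.441). The endothelial genes lower on day 35 were *Ackr1* (-1.60), *Lyve1* (-0.852) and *Vwf* (-0.767), and those higher were *Esm1* (0.47) and *Ebf1* (0.339). The macrophage, complement and antigen presentation genes lower on day 35 were *C1qb* (-1.38), *C1qa* (-1.27), *Mmp12* (-1.19), *C3ar1* (-0.93), *Trem2* (-0.911), *Ctss* (-0.802) and *Gpnmb* (-0.751), and those higher were *Fabp1* (1.79) and *Krt79* (1.30). The lymphocyte genes lower on day 35 were *Cxcl13* (-1.86) and *S1pr2* (-0.244), and those higher were *Ighg2c* (4.66), *Ighg3* (3.89), *Ighg2b* (2.51), *Jchain* (2.36), *Igkc* (2.23), *Klra8* (0.948), *Ncr1* (0.732) and *Prdm1* (0.294). The inflammatory, proliferation and arrest genes lower on day 35 were *Ccl2* (-2.61), *Hmmr* (-1.70), *Ccnb1* (-1.63), *Cxcl10* (-1.56), *Mki67* (-1.41), *Cdkn1a* (-1.11), *Psrc1* (-0.831), *S100a8* (-0.777) and *Ifit1* (-0.585). Of the other genes, those lower on day 35 were *Serpina3m* (-3.18), *Serpinb9b* (-2.97), *Chl1* (-2.80), *Dio2* (-1.69), *Hmox1* (-0.615) and *Bhlhe40* (-0.375), and those higher were *Hes2* (1.54), *Unc79* (1.28), *Gsg1l* (0.903), *Elovl1* (0.61), *mt-Nd2* (0.482), *Cav1* (0.406), *mt-Nd4* (0.325), *Cx3cl1* (0.234) and *Cd36* (0.23). Thymus genes marked CTRL replicate 9 in particular, the mouse with the highest levels of *Rag1* and *Dntt*, and the part of thymus RNA in its immunoglobulin levels was not tested.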

How the results depend on the processing

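For day 35 against CTRL, 4853 DEGs became 5082 with DESeq2, 4824 with library size as the only scaling (62.5% of calls higher, against 56.4%), 4834 with upper quartile factors, 4145 with no filter, 4053 with at least 10 counts in every mouse, 5577 in a fit of only both groups, 2183 with an absolute log2FC of at least 0.5, and 4308 to 5047 with 1 mouse left out. List members called ranged from 194 to 258 higher (237 in the values reported) and 74 to 118 lower (86). Against day 28, 206 DEGs became 327 with DESeq2, 41 with at least 10 counts in every mouse, and 0 in a fit of only both groups (1568 genes at an unadjusted p under 0.05) and with mice of shared numbers alone. Against day 42, 0 DEGs became 1 with mice of shared numbers. Against day 14, 6979 became 2723 with an absolute log2FC of at least 0.5, and the share of calls that were higher went from 46.3% to 55.3% with library size and 54.7% with upper quartile factors. The cause of these shifts was not tested.

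The labels number mice in every group, but same-numbered mice did not deviate together: of 10 pairs, 1 had a correlation over 0.1 (range -0.134 to 0.106), and 1 day 35 mouse correlated best with its own number. With the number as a replicate block, 4954 genes were called against CTRL (5515 for the same mice without it), 4953 against day 14 (5619), 0 against day 28 (1545 at an unadjusted p under 0.05) and 40 against day 42.

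Of 1101 values of the 148 named genes under these settings, 1057 kept their direction and side of the threshold, 23 lost the call, 14 gained one and 7 changed sign. The sign changes concern 2 genes near 0. *S100a8* (-0.00356) was 0.01295 with library size, 0.003848 with upper quartile factors, 0.005089 in a fit of only both groups, 0.05844 with the replicate block and 0.0594 with shared numbers. *Siglecf* (0.02161) was -0.04227 with the block and -0.003044 with shared numbers. With 1 mouse left out, 108 of 3256 values lost the call and 18 changed sign, again in *S100a8* (-0.106 to 0.08335) and *Siglecf* (-0.03436 to 0.06806). Genes with few counts per library were limited by depth: *Krt5* had 3 counts over all CTRL mice and *Krt17* none.

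Counts of single lists also moved by more than 1.5 times. In a fit of only both groups, members called lower became 7 for AT1 cells (3), 7 for fibroblasts (4), 3 for ciliated cells (0), 4 for club cells (2), 4 for T cells (2), 3 for matrix turnover (1), 3 for myofibroblasts (1) and 5 for brown fat (0), and members called higher became 8 for heart muscle (2), 5 for club cells (3) and 2 for skeletal muscle (0), with the counts reported in parentheses. With the replicate block, 7, 7, 3, 4 and 4 were lower for AT1, fibroblasts, ciliated cells, club cells and brown fat, and 8 were higher for heart muscle. With mice of shared numbers alone, 5 B cell genes were lower (0). With at least 10 counts in every mouse, members called higher fell to 9 for chemokines (17), 8 for plasma cells (14), 2 for T cells (7) and 0 for heart muscle, and members called lower to 0 for NK cells (7) and 1 for alveolar macrophages (3). With no filter, 11 chemokines were higher. In lists not named here, counts moved by at most 2 genes.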

Other observations

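Immunoglobulin variable segments, which encode the antigen-binding parts of antibodies, were also compared between days. Of 125 tested, 88 were higher on day 35 than on day 14 and 0 lower, and 9 were higher and 1 lower than on day 28. The constant region gene *Igkc* stood at 65.5 to 1459 CPM (median 477) on day 28 and 191 to 1064 CPM (median 295) on day 42, against 185 to 3198 CPM (median 317) on day 35. The highest mice belonged to day 35 and the highest median to day 28.

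The order of the mice differed between gene groups. Day 35 replicate 9, which was farthest from CTRL over all genes, had the highest *Krt5* (15.9 CPM) and *Mmp12* (267 CPM) but the lowest collagen deviation of the 12 mice (0.30 on the log2 scale) and a plasma cell deviation of 0.28. Replicate 11 had the highest B cell deviation (0.47) and a clock deviation near 0 (-0.08), where the other 11 mice ranged from -0.94 to -0.27. These are descriptions of single mice and were not tested.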
